A study of Mus musculus with 23 samples.

Results

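The genes that activate and read thyroid hormone in brown adipose tissue (BAT) were followed across genotype and cold. They were the 6 rows of the expression table whose symbols are Dio2, Thra, Thrb, Rxra, Rxrg and Ncor1, of 14651 genes in all. BAT takes up thyroxine, the circulating form of the hormone, and the deiodinase encoded by Dio2 converts it inside the cell to the active hormone T3. T3 binds the nuclear receptors encoded by Thra and Thrb, which sit on DNA mostly as partners of a retinoid X receptor (RXR), such as those encoded by Rxra and Rxrg. Without T3 the receptors hold corepressors such as the protein encoded by Ncor1, and with T3 they exchange them for coactivators. In brown fat, noradrenaline released in the cold raises cAMP, and Dio2 is one of the classical genes switched on by that signal.

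RNA-seq was performed on BAT of 23 male mice aged 8 to 12 weeks. They were largely of C57BL/6 background, from a line made with stem cells of mixed background and then crossed to C57BL/6J. Control mice were Mcu fl/fl without Cre, with exon 2 of Mcu, the pore subunit of the mitochondrial calcium uniporter, flanked by loxP sites, and BAT-Mcu-KO mice (knockout mice) carried the same alleles with Ucp1-Cre, so that deletion was limited to cells that use the Ucp1 promoter. Mice were kept for 6 h at room temperature (RT; 6 control and 6 BAT-Mcu-KO mice) or at 4°C (5 control and 6 BAT-Mcu-KO mice). Cold mice were housed singly without bedding and, unless otherwise stated, without food, and the feeding of the RT mice is not given in the sources used here, so the temperature cannot be told apart from these housing conditions.

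Each mouse gave 1 library, with 7129271 to 21006347 reads counted on genes, of which 23.1% to 38.1% fell on mitochondrial genes. The values are normalized counts, that is, reads divided by a size factor of the library. Mcu had 70.8 to 136 normalized counts in the 11 control mice and 15.2 to 42.4 in the 12 BAT-Mcu-KO mice, without overlap at either temperature, which follows the labels. All 10 brown adipocyte markers were detected in every group. The summed normalized count of 10 skeletal muscle markers ran from 279 to 62795 across the 23 mice, and 0 of these 10 genes were called by cold in either genotype. Over all genes, 46.0% were called by cold in control mice and 43.3% in knockout mice, shares to set beside all marker counts here. With so wide a spread, the lack of calls does not show that the muscle genes were unchanged. The median sum was 2856 at RT and 15146 at 4°C in control mice, and 24332 and 4727 in knockout mice, where the median log2 fold change of the 10 genes was -1.07 (0.07 in control mice). After the group means were removed, the correlation of the members with that sum lay between r = -0.32 (Dio2) and r = 0.20 (Thrb) over the 23 mice. Of the brown adipocyte markers, 4 rose and 4 fell by cold in control mice, and 3 rose and 2 fell in knockout mice. Summed markers of endothelial cells (2 of 6 genes rose and 1 fell in each genotype) were 3084 to 4497 at RT and 5022 to 7844 at 4°C in control mice, and 3356 to 4498 and 4664 to 6545 in knockout mice. Of 6 macrophage markers 1 rose in control and 3 rose in knockout mice, and of 5 stromal markers 0 and 1. The part of these cell types in the results below was not tested. In whole tissue, fewer cells of a type and less RNA per cell cannot be told apart.

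Dio2 (ENSMUSG00000007682.6) lies on the minus strand of chromosome 12, 90724552 to 90738438 in GRCm38, and Thrb on the plus strand of chromosome 14, 17660261 to 18038090. Their RefSeq promoters are shown because Dio2 carried by far the largest change by cold among the 6 genes and because, of the promoter entries found, these held the letters of the cAMP response element (CRE), TGACGTCA, or of the shorter core within it, TGACG. Each run covers the 250 bases before a RefSeq start, 5′ to 3′ on the gene's strand (RefSeq, GRCm38.p6), and capitals mark the CRE in Dio2 and the core in Thrb.
Dio2, chr12:90739039-90739288, minus strand: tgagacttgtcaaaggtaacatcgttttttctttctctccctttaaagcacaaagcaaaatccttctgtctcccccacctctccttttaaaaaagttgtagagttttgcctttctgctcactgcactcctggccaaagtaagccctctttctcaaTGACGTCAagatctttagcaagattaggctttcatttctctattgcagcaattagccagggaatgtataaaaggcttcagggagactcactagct
Thrb, chr14:17660710-17660959, plus strand: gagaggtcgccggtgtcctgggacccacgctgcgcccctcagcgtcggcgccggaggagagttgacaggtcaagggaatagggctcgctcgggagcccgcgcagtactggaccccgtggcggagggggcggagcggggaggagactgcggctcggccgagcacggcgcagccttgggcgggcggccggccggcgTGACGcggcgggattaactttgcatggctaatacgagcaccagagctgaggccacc

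In the Dio2 promoter the 8-letter CRE, which reads the same on both strands, stood from -95 to -88, counted from the start. The same letters occurred in 508 of 32851 promoter windows of this length (1.55%). The core TGACG, searched on both strands and contained in every CRE, occurred in 17.8% of the windows, and in Thrb it stood from -56 to -52. The core hexamer of nuclear receptor elements, AGGTCA, occurred in 14.0% of the windows on either strand. It was found once in the Thrb window printed, from -184 to -179, and in neither Ncor1 window. It was also found once in 1 of the Rxrg windows and 2 times in 1 of the Rxra windows. All of these windows with AGGTCA lie inside the genes as annotated in GENCODE. The Rxrg window begins at 167618015 and the gene at 167598384, and the Rxra window at 27709042 and the gene at 27676440. The other Rxrg and Rxra windows, nearer the annotated starts, held no AGGTCA. A pair of these hexamers in direct repeat with a spacing of 4 bases (DR4), the arrangement preferred by thyroid hormone receptors with RXR, occurred in 5 of the 32851 windows (0.0152%) and in none of the 9 windows of the 5 members that had entries. Letters absent from these windows may stand elsewhere. The RefSeq start of Dio2 lies outside the gene as annotated in GENCODE, upstream of its 5′ end. On this minus strand the annotated gene begins at 90738438, and the window begins beyond it, at 90739288, and ends at 90739039. The position of the CRE is thus counted from the RefSeq start and not from the GENCODE one.

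The first question was how 6 h at 4°C changed these genes in each genotype. Dio2 rose, Rxrg rose, and Thra, Thrb and Ncor1 fell, in control and in knockout mice alike in direction, and Rxra did not pass the test in either. Thus 5 of 6 genes were called in control mice (2 higher, 3 lower), where limma with Benjamini-Hochberg adjustment over all genes called 46.0% of the table (22.3% higher and 23.7% lower). In knockout mice 5 of 6 were called (2 higher, 3 lower) against 43.3% of the table (21.4% higher and 21.9% lower). The median log2 fold change of the 6 genes was -0.12 in control and -0.25 in knockout mice, beside -0.02 over all genes in both. A call here means an adjusted p under 0.05.

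**Figure D1:**
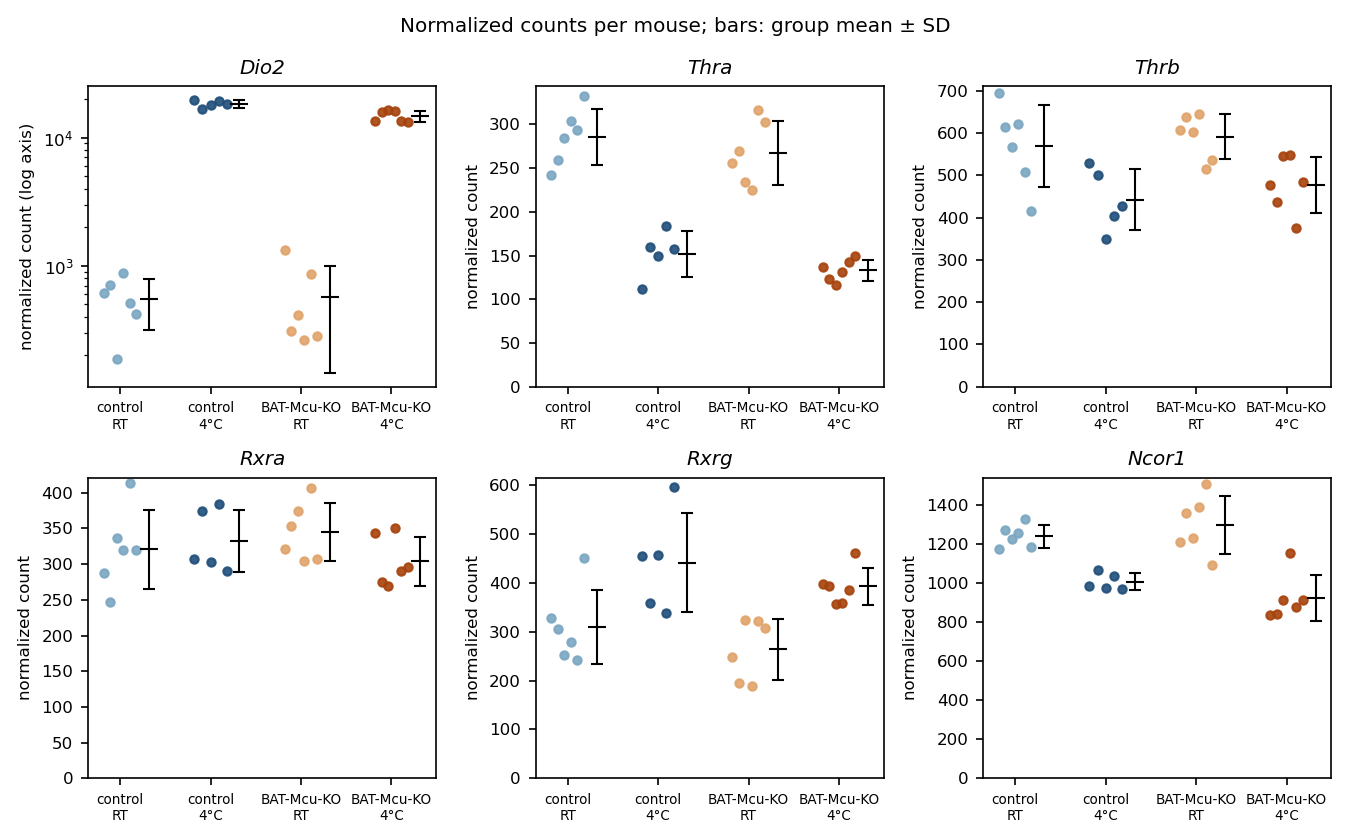
Normalized counts of the 6 genes, with 1 point per mouse and bars for the group mean ± SD, in 4 groups (control and BAT-Mcu-KO, RT and 4°C; n = 6, 5, 6 and 6). Dio2 is on a log axis and the others on linear axes from 0; Dio2 at 4°C lay between 13156 and 19732, above every RT mouse, and Thra lay below every RT mouse at 4°C.

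Dio2 in control mice at RT had 612, 706, 187, 880, 515 and 419 normalized counts. At 4°C the 5 control mice had 19732, 16733, 17790, 19095 and 18165. The highest RT mouse was far below the lowest cold mouse, and the level was 36.6-fold higher at 4°C on the scale of log2(normalized count + 1), a log2 fold change of 5.19 (SE 0.34, limma adjusted p = 8.85e-12). In knockout mice Dio2 had 1323, 309, 411, 262, 854 and 283 at RT. At 4°C the mice of this genotype had 13569, 15705, 16473, 16022, 13415 and 13156. The groups again stood apart, by a log2 fold change of 4.96 (SE 0.32, 31.2-fold, limma adjusted p = 7.83e-12).

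The spread of Dio2 between mice was wide at RT and narrow at 4°C. Its coefficient of variation was 43.3% in control and 74.7% in knockout mice at RT, and 6.36% and 10.2% at 4°C. At RT the read counts behind Dio2 were 198 to 1533 per mouse, so the spread there was far beyond counting error. Dio2 shares 100 bp of exon, 1.72% of its exon length, with Gm26512, a transcript of the opposite strand, and reads were counted irrespective of strand.

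The receptor genes Thra and Thrb both fell at 4°C, Thra by more. Thra (ENSMUSG00000058756.13; chromosome 11, 98740638 to 98769006, plus strand) encodes TRα, whose isoforms include a form that does not bind the hormone, and the table does not separate isoforms. At RT it ran from 242 to 333 normalized counts in control mice, with a median of 289. At 4°C the control mice had 111, 159, 149, 184 and 158. Every cold mouse was below every RT mouse, and the log2 fold change was -0.91 (SE 0.12, limma adjusted p = 1.25e-06). In knockout mice Thra ran from 225 to 316 (median 262) at RT, and the cold mice had 117 to 149 (median 134). These groups did not overlap either, and the log2 fold change was -0.99 (SE 0.12, limma adjusted p = 1.82e-07).

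The 3′ end of Thra overlaps that of Nr1d1, which lies on the opposite strand and encodes the clock repressor REV-ERBα. The annotated genes share chromosome 11 from 98767932 to 98769006, with 263 bp of exon in common, 5.70% of the exon length of Thra and 8.55% of that of Nr1d1. Without strand, reads from the shared stretch cannot be given to one gene. Nr1d1 had 398 to 851 normalized counts in control mice at RT and 187 to 429 at 4°C, and 375 to 1047 and 162 to 513 in knockout mice. It fell by 0.93 on the log2 scale in control mice (SE 0.27, limma adjusted p = 0.00688) and by 0.86 in knockout mice (SE 0.26, limma adjusted p = 0.00863), with overlapping groups. Both genes were thus lower in the cold. Over the 23 mice the log2 levels of Thra and Nr1d1 correlated with r = 0.65, and with r = -0.02 once the group means were removed. The plot of Thra against Nr1d1 shows the separation by temperature along the Thra axis and the wide spread of Nr1d1 within groups.

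**Figure D2:**
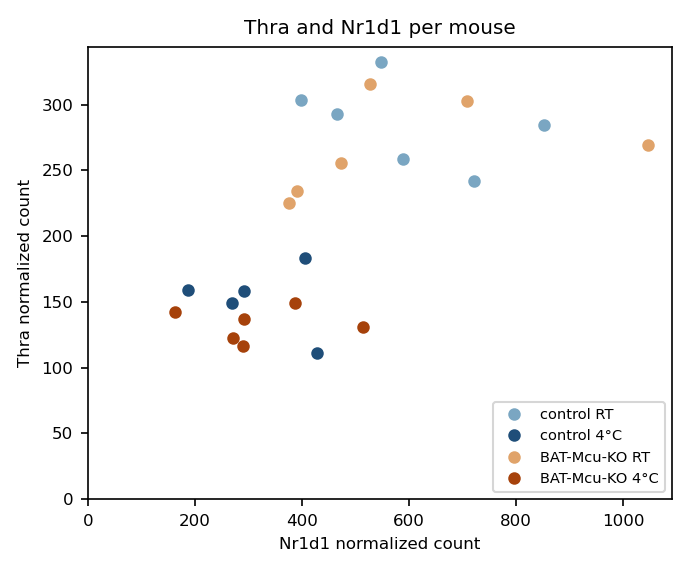
Thra (y axis) against Nr1d1 (x axis), in normalized counts, with 1 point per mouse coloured by group. Mice at 4°C lie at Thra counts of 111 to 184 and mice at RT at 225 to 333, while Nr1d1 overlaps between the temperatures.

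Thrb (ENSMUSG00000021779.17) encodes TRβ. In control mice it ran from 416 to 694 (median 590) at RT and was 528, 501, 350, 405 and 428 at 4°C. In knockout mice it ran from 516 to 644 (median 604) at RT, and at 4°C the 6 mice had 374 to 548 (median 480). The groups overlapped in both genotypes. Thrb fell by 0.36 on the log2 scale in control mice (SE 0.13, limma adjusted p = 0.0210) and by 0.31 in knockout mice (SE 0.12, limma adjusted p = 0.0367). These were the least secure calls among the members. Without control RT replicate 1, control 4°C replicate 3 or control 4°C replicate 4 the call in control mice was lost (limma adjusted p = 0.0591, 0.0812 and 0.0508), and that in knockout mice was kept in 16 of 23 fits with 1 mouse left out. The mice whose removal ended it were BAT-Mcu-KO RT replicates 1, 2, 3 and 4 and BAT-Mcu-KO 4°C replicates 1, 2 and 5, with limma adjusted p from 0.0518 to 0.106.

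Between the receptor genes, the ratio of Thra to Thrb per kb of exon had a median of 0.80 in control mice at RT and 0.59 at 4°C. In knockout mice it was 0.68 at RT and 0.46 at 4°C. The ranges overlapped, from 0.559 to 1.28 and 0.338 to 0.728 in control mice, and from 0.560 to 0.983 and 0.342 to 0.611 in knockout mice. These ratios are descriptions, without a test.

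Of the RXR genes, Rxrg rose and Rxra did not pass the test. Rxrg (ENSMUSG00000015843.10; chromosome 1, 167598384 to 167639623, plus strand) encodes RXRγ, the isotype with the narrower tissue range, known from muscle among others. In control mice it ran from 242 to 452 (median 293) at RT and was 455, 360, 457, 339 and 596 at 4°C. 3 of the 5 cold control mice were above every RT mouse. In knockout mice it ran from 189 to 325 (median 278) at RT and stood at 358 to 462 (median 390) in the cold, without overlap. The control groups differed by a log2 fold change of 0.51 (SE 0.17, limma adjusted p = 0.0146) and the knockout groups by 0.60 (SE 0.16, limma adjusted p = 0.00358). The control call depended on 1 cold mouse, replicate 5, the highest of its group at 596, without which the limma adjusted p was 0.0628. It also missed the threshold when libraries were scaled to their 75th percentile (limma adjusted p = 0.0535), which itself shifted the median over the table in control mice, from -0.02 to -0.13. With the group means removed, Rxrg correlated with the summed skeletal muscle markers at r = -0.19 over 23 mice.

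Rxra (ENSMUSG00000015846.14; chromosome 2, 27676440 to 27762957, plus strand) encodes RXRα, a widely expressed partner of many nuclear receptors. It ran from 247 to 413 at RT in control mice, with a median of 320, and was 307, 375, 304, 385 and 291 at 4°C. In knockout mice it ran from 305 to 407 (median 338) at RT, and cold mice had 270 to 350 (median 293). All groups overlapped. The log2 fold change was 0.06 in control mice (95% CI -0.19 to 0.30, limma adjusted p = 0.712) and -0.18 in knockout mice (95% CI -0.41 to 0.05, limma adjusted p = 0.213). The sign in control mice turned to -0.05 under the 75th percentile scaling. Per kb of exon, the ratio of Rxra to Rxrg had a median of 0.43 at RT and 0.28 at 4°C in control mice, and 0.54 and 0.32 in knockout mice.

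Ncor1 (ENSMUSG00000018501.17; chromosome 11, 62316426 to 62458541, minus strand), the corepressor of unliganded receptors, had a coefficient of variation of 4.72% and 4.23% between control mice at RT and 4°C, and of 11.4% and 12.7% between knockout mice. In control mice it ran from 1174 to 1331 (median 1241) at RT and was 987, 1067, 973, 1036 and 971 at 4°C. Every cold control mouse was below every RT control mouse. It fell by 0.30 on the log2 scale in control mice (SE 0.09, limma adjusted p = 0.00547). In knockout mice it ran from 1094 to 1506 (median 1294) at RT, cold mice had 835 to 1152 (median 895), and 5 of the 6 cold mice were below every RT mouse. Here it fell by 0.49 (SE 0.08, limma adjusted p = 2.26e-05). Ncor1 shares 82 bp of exon with Pigl and 1 bp with Ttc19 on the opposite strand.

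Groups that did not overlap between RT and 4°C were seen for 3 of the 6 genes in control mice (Dio2, Thra and Ncor1), where 25.2% of all genes showed this. In knockout mice they were seen for 3 of 6 (Dio2, Thra and Rxrg), against 24.2% of all genes.

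Levels can be set against each other per kb of annotated exon, though only roughly. The length used joins the exons of all annotated transcripts of a gene, which can exceed the length of those expressed. This limit also holds for the ratios per kb above. In control mice at RT the order of the mean normalized counts per kb was Rxrg (135 ± 33.3, SD, n = 6), Ncor1 (96.8 ± 4.57), Dio2 (95.1 ± 41.2), Thrb (76.9 ± 13.1), Thra (61.9 ± 7.02) and Rxra (58.7 ± 10.1). The ranges of Rxrg and Ncor1 did not overlap (105 to 197 and 91.6 to 104), and those of the other neighbours did. At 4°C in control mice Dio2 led with 3148 ± 200.1 (SD, n = 5), ahead of Rxrg (192 ± 44.3), Ncor1 (78.6 ± 3.32), Rxra (60.9 ± 8.04), Thrb (59.7 ± 9.77) and Thra (33.0 ± 5.69). Only the neighbours Rxra and Thrb overlapped in this group. In knockout mice at RT the order was Rxrg (115 ± 27.3, SD, n = 6), Ncor1 (101 ± 11.55), Dio2 (98.7 ± 73.7), Thrb (79.8 ± 7.17), Rxra (63.1 ± 7.46) and Thra (57.9 ± 7.94), and all neighbours overlapped. At 4°C it was Dio2 (2532 ± 258), Rxrg (171 ± 16.5), Ncor1 (72.0 ± 9.16), Thrb (64.5 ± 8.99), Rxra (55.7 ± 6.30) and Thra (28.8 ± 2.65; SD, n = 6). Here Ncor1 overlapped with Thrb and Thrb with Rxra. At 4°C Dio2 stood first and Thra last in both genotypes, and Thra was also last at RT in knockout mice.

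**Figure D3:**
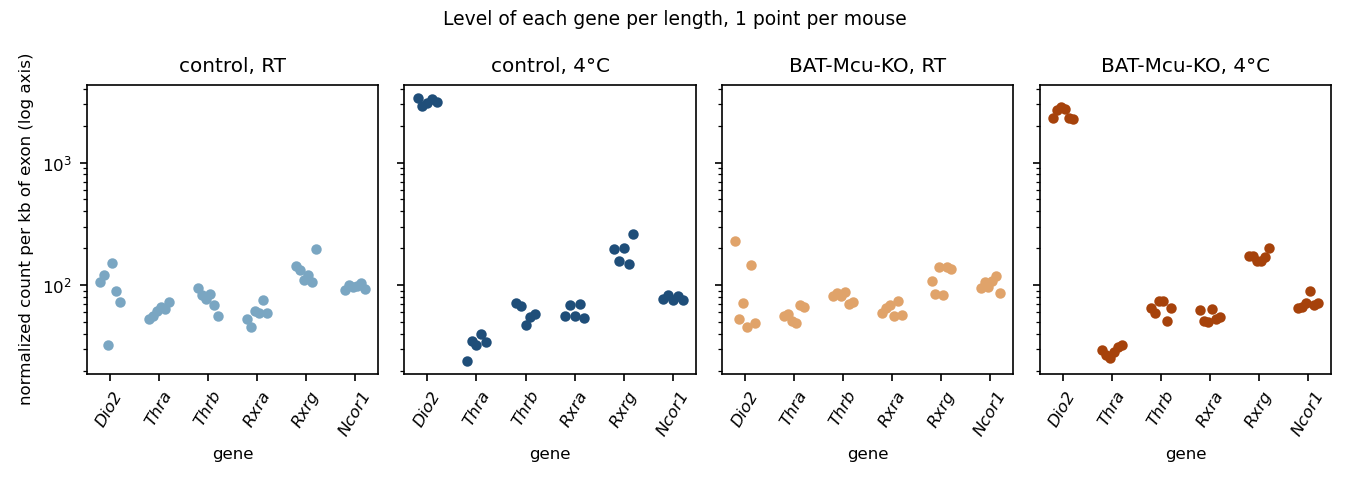
Normalized count per kb of exon (log axis) for the 6 genes in each of the 4 groups, with 1 point per mouse. At RT the 6 genes lie within 1 band from 32.1 to 228, and at 4°C Dio2 stands at 2262 to 3393 above the others and Thra at 24.1 to 39.8 below them.

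The second question was whether these genes differed between BAT-Mcu-KO and control mice at either temperature. All knockout mice and no control mice carried Ucp1-Cre, so loss of Mcu cannot be told apart from the transgene. None of the 6 was called at RT (smallest limma adjusted p = 0.971), where 0.0478% of all genes were called (7 genes), and none at 4°C (smallest limma adjusted p = 0.797), where 0.0751% were (11 genes). The smallest unadjusted p among the 6 was 0.160 at RT and 0.131 at 4°C in limma. At RT the log2 fold changes of BAT-Mcu-KO against control ran from -0.23 for Rxrg (95% CI -0.56 to 0.10) to 0.11 for Rxra (95% CI -0.12 to 0.35). At RT Dio2 differed by -0.09 (95% CI -0.75 to 0.58), an interval too wide to exclude a sizeable difference in either direction. Its spread was estimated from all 4 groups, which includes the narrow spread at 4°C, so the interval may be too narrow for the RT mice. For Thra and Thrb at RT the values were -0.10 (95% CI -0.34 to 0.14) and 0.07 (95% CI -0.18 to 0.31), and for Ncor1 0.06 (95% CI -0.11 to 0.23). None of the 6 genes was without overlap between the genotypes at RT, against 0.218% of all genes.

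At 4°C Dio2 was the gene of the 6 whose genotypes did not overlap, which 0.683% of all genes (100 genes) showed. Each of the 6 knockout mice (13156 to 16473) was below each of the 5 control mice (16733 to 19732), with means of 14723 ± 1498 (SD, n = 6) and 18303 ± 1164 (SD, n = 5). The highest knockout mouse and the lowest control mouse differed little. The log2 fold change was -0.32 (SE 0.34, 95% CI -1.02 to 0.38, limma adjusted p = 0.880), with the spread estimated from all 4 groups, which includes the wide spread at RT. With the 4°C groups alone the SE was 0.09 and the limma adjusted p was 0.601. Taken by itself, and singled out after its values were seen, the difference had p = 0.004329 in a two-sided exact permutation test over mice, the smallest p that 5 against 6 mice allow. Groups of these sizes without overlap always give this p, so it only restates the lack of overlap. In the test adjusted over the whole table the difference was not called.

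The other genes at 4°C gave log2 fold changes of BAT-Mcu-KO against control of -0.18 for Thra (95% CI -0.43 to 0.07), 0.11 for Thrb (95% CI -0.15 to 0.37), -0.13 for Rxra (95% CI -0.37 to 0.12), -0.14 for Rxrg (95% CI -0.49 to 0.20) and -0.13 for Ncor1 (95% CI -0.31 to 0.04). None of these intervals excludes 0. For Ncor1, 5 of the 6 knockout mice were below every control mouse and 1, at 1152, was above every control mouse.

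The third question was whether the change by cold differed between the genotypes. The difference of the log2 fold changes (BAT-Mcu-KO minus control) was -0.23 for Dio2 (95% CI -1.20 to 0.73), -0.08 for Thra (95% CI -0.43 to 0.27) and 0.05 for Thrb (95% CI -0.31 to 0.41). For Rxra it was -0.24 (95% CI -0.58 to 0.10), for Rxrg 0.09 (95% CI -0.39 to 0.57) and for Ncor1 -0.19 (95% CI -0.44 to 0.05). None of the 6 passed (smallest limma adjusted p = 0.858), and 0% of the table passed (0 of 14651 genes in limma and 0 in edgeR, 28 in DESeq2, and 878 at an unadjusted limma p under 0.05). Both cold comparisons and both genotype comparisons share mice with this one.

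**Figure D4:**
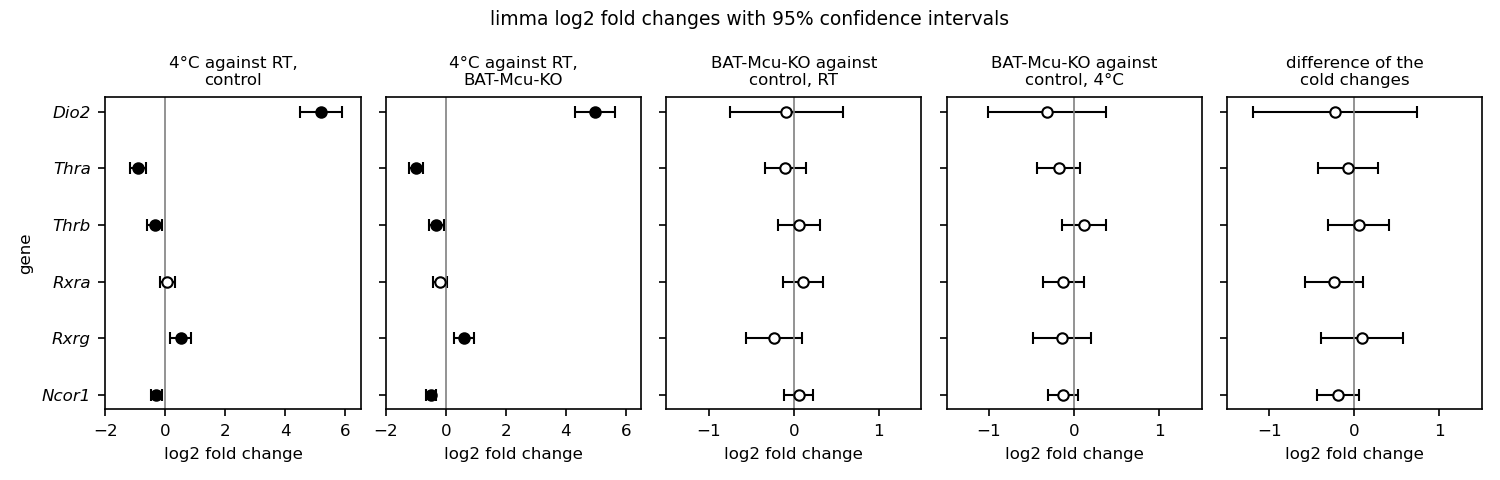
Log2 fold changes of the 6 genes (x axis) with 95% confidence intervals from limma in 5 comparisons, filled where the adjusted p was under 0.05 and open otherwise; the cold panels have a wider x axis than the others. In the cold panels 5 of 6 genes are filled in each genotype, and none is filled in the genotype and difference panels.

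The genes around these 6 in the pathway were taken from lists of transporters, deiodinase turnover and selenoprotein synthesis, RXR partners, corepressor and coactivator subunits and T3-responsive genes. Dio1, Dio3 and Rxrb were also listed, and Nr1d1 was listed only for its overlap with Thra. Of 52 listed genes 47 were in the table, and Dio1, Dio3, Slco1c1, Slco1a5 and Slc7a5 were not analysed here. By cold, 30 of the 47 were called in control mice (20 higher, 10 lower), where 46.0% of all genes were (22.3% higher, 23.7% lower). In knockout mice 30 of the 47 were called (20 higher, 10 lower, Nr1d1 among the lower in both genotypes), against 43.3% of all genes (21.4% higher, 21.9% lower). The single lists below hold 5 to 11 genes each, and their counts are to be read beside these shares, which some of them lie near. Their median log2 fold change was 0.23 in control and 0.16 in knockout mice, beside -0.02 for all genes. By genotype 0 of the 47 were called by limma at RT (1 at an unadjusted p under 0.05) and 0 at 4°C (5 at an unadjusted p under 0.05), and for the difference of the cold changes 0 (3 at an unadjusted p under 0.05).

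Among thyroid hormone transporters, 3 of 5 rose and 1 fell in each genotype. Slc7a8, an amino acid transporter of the system L type that also carries thyroid hormone, went from 64.6 ± 33.3 normalized counts (SD, n = 6) at RT to 2352 ± 1095 (n = 5) at 4°C in control mice and from 182 ± 160 to 3116 ± 642 (n = 6 and 6) in knockout mice. Its partner chain Slc3a2 rose by log2 3.13 (SE 0.17) in control and 2.93 (SE 0.16) in knockout mice. Slco1a4, an organic anion transporter, was called higher in both, but at RT it had 0 to 4.1 normalized counts, and with a pseudocount of 10 the control call was lost (limma adjusted p = 0.0693).

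Of the genes for turnover of the deiodinase and for selenoprotein synthesis, 5 of 7 rose in control and 4 of 7 in knockout mice, and none fell. The Dio2 enzyme contains selenocysteine and is removed by ubiquitination. Wsb1, a ubiquitin ligase adaptor for it, rose by log2 1.18 (SE 0.12) in control and 1.27 (SE 0.11) in knockout mice. Usp33, a deubiquitinase that acts on it, rose by log2 1.48 (SE 0.15) and 1.35 (SE 0.14). Sephs2, which makes the selenium donor, rose by log2 1.25 (SE 0.25) and 0.80 (SE 0.24). Usp20, a second deubiquitinase of the deiodinase, was not called, with log2 fold changes of 0.22 (SE 0.16) and -0.20 (SE 0.16). Reads of Usp33 and Sephs2 can include transcripts annotated over their exons, which cover 36.4% of the exon length of Sephs2.

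In the corepressor complex, 2 of 5 genes rose and 1 fell in each genotype. Only Hdac3 and Gps2 were called in both, and the other gene that rose was not the same in the 2 genotypes. None of the 5 was called for the difference of the cold changes. Hdac3, the deacetylase held by NCOR1, fell from 778 ± 67.6 (SD, n = 6) to 518 ± 22.9 (n = 5) in control mice and from 855 ± 44.0 to 561 ± 61.4 (n = 6 and 6) in knockout mice, and Gps2, another subunit, rose by log2 0.56 (SE 0.12) and 0.45 (SE 0.11). Among coactivators, 4 of 8 rose and 1 fell in control mice, and 4 rose and 2 fell in knockout mice. Ppargc1a, the coactivator PGC-1α, went from 573 ± 187 (n = 6) to 19302 ± 4383 (n = 5) in control mice and from 550 ± 189 to 10675 ± 2190 (n = 6 and 6) in knockout mice. Med1, the Mediator subunit that contacts nuclear receptors, rose by log2 1.01 (SE 0.08) and 0.98 (SE 0.08), and Ncoa1 by 0.90 (SE 0.09) and 1.04 (SE 0.08).

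Ppargc1a also gave the smallest adjusted p of the 47 genes for genotype at 4°C, with a log2 fold change of -0.85 (limma adjusted p = 0.284), which is not a call. As for Dio2, every knockout mouse at 4°C was below every control mouse, and 0.683% of all genes had genotypes without overlap there.

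Of the receptors that pair with RXR, 4 of 11 rose and 2 fell in control mice, and 5 rose and 1 fell in knockout mice. The largest changes were those of Nr4a1 (log2 4.26, SE 0.41, in control and 3.69, SE 0.39, in knockout mice), Vdr (2.64, SE 0.40, and 2.54, SE 0.38) and Nr4a2 (1.76, SE 0.28, and 1.60, SE 0.27). Nr4a1 and Nr4a2 are immediate early genes, and Vdr, the vitamin D receptor, was low throughout, at 1.8 to 12.1 normalized counts at RT and 19.9 to 64.9 at 4°C. Rxrb, the third RXR gene, was not called, with log2 fold changes of 0.08 (SE 0.14) and 0.16 (SE 0.13).

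The T3-responsive genes did not move one way. Of 9, 2 rose and 4 fell in each genotype, with a median log2 fold change of -0.44 in both. Ucp1, the uncoupling protein, rose from 63859 ± 6228 (SD, n = 6) to 165205 ± 23378 (n = 5) in control mice and from 56907 ± 5325 to 157765 ± 9239 (n = 6 and 6) in knockout mice. Thrsp, a lipogenic gene named for its response to thyroid hormone, fell from 49977 ± 4723 to 6896 ± 3846 in control mice and from 49134 ± 12062 to 6525 ± 1656 in knockout mice. Hr, a corepressor gene induced by T3 in brain, fell by 1.35 on the log2 scale (SE 0.27) in control and by 0.76 (SE 0.26) in knockout mice. The latter call was lost without BAT-Mcu-KO RT replicate 1, BAT-Mcu-KO 4°C replicate 2 or BAT-Mcu-KO 4°C replicate 5 (limma adjusted p = 0.0521, 0.0642 and 0.0574). The lipogenic genes Acaca and Fasn fell too, by 0.88 (SE 0.29) and 0.73 (SE 0.26) in control mice and by 0.93 (SE 0.28) and 0.68 (SE 0.25) in knockout mice, and Klf9 rose by log2 0.76 (SE 0.10) and 0.62 (SE 0.10).

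**Figure D5:**
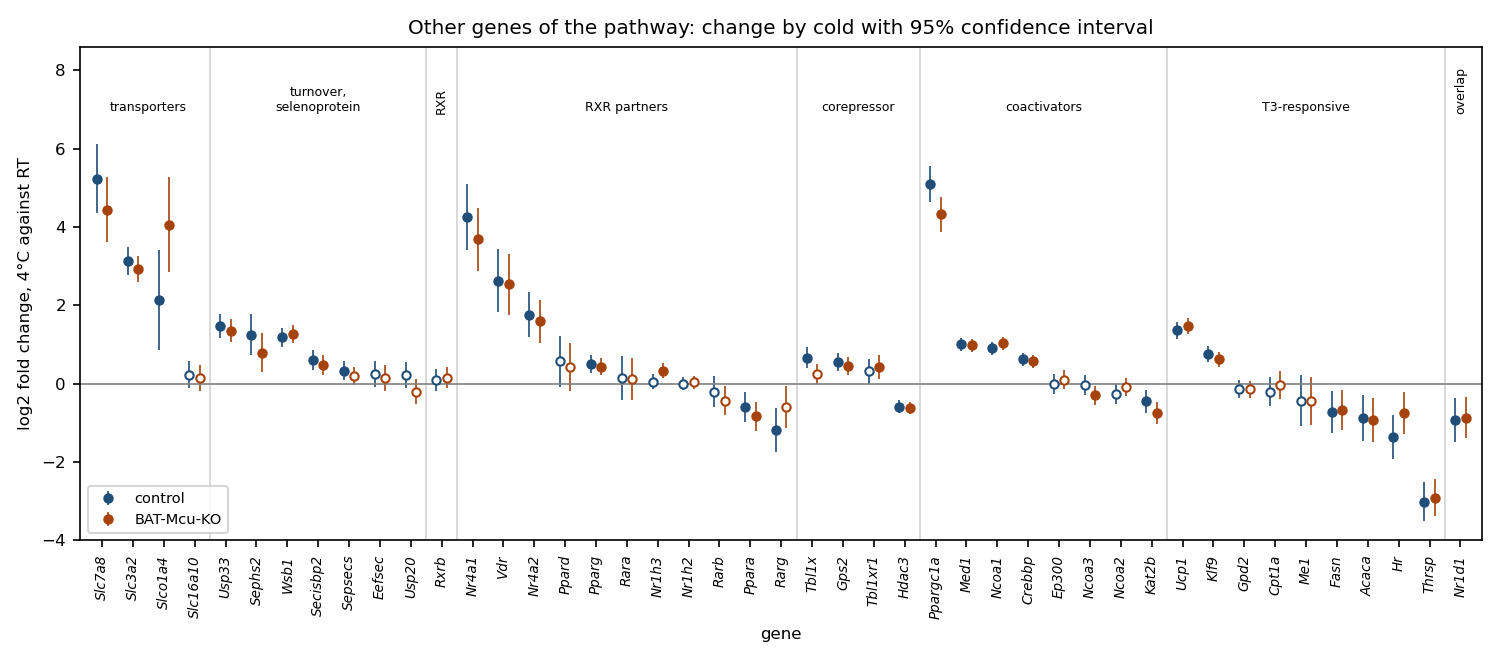
Log2 fold change at 4°C against RT (y axis) with 95% confidence interval for 45 of the 47 other listed genes, Nr1d1 included. Genes are ordered within lists, with control mice in blue and BAT-Mcu-KO mice in brown. Filled points passed the limma test. In each genotype 20 genes are filled above and 9 below the zero line, and the transporters and coactivators hold some of the largest rises.

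The genes whose log2 levels followed each member most closely were taken from the 9531 genes whose mean normalized count reached 50, over the 23 mice, which share temperature and libraries. For Dio2 they were Adam12 (r = 0.99), Ppargc1a (r = 0.98) and Ankrd9 (r = 0.98), and Ucp1 had r = 0.97. For Thra they were Gtf2i (r = 0.95), Tusc5 (r = 0.94) and Ptms (r = 0.94). For Ncor1 they were Celsr2 (r = 0.92), Mdfic (r = 0.89) and Lrig1 (r = 0.88). The other members had looser matches, Rxrg with Rpl7l1 (r = 0.86), Ecd (r = 0.85) and Pla1a (r = 0.85), Thrb with Syne3 (r = 0.81), Fam49a (r = 0.80) and Stk38l (r = 0.80), and Rxra with Diap2 (r = 0.77) and Vapb (r = 0.71).

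With the group means removed, differences between those means no longer contribute, and the nearest genes were others in most cases. For Dio2 they were Sprtn (r = 0.83), Ptger1 (r = 0.80) and Sephs1 (r = 0.79), while Ppargc1a had r = 0.64 and Ucp1 r = 0.40. For Thra they were Snx25 (r = 0.84), Rnpepl1 (r = 0.76) and Ckb (r = 0.74), and for Thrb Fyttd1 (r = 0.76), Slc5a3 (r = 0.74) and Hspa4l (r = 0.73). For Rxra they were Sgk1 (r = 0.79), Diap2 (r = 0.76) and Pbrm1 (r = 0.75), for Rxrg Dolk (r = 0.86), Rpl7l1 (r = 0.77) and Crispld2 (r = 0.74), and for Ncor1 Sbf2 (r = 0.81), Med14 (r = 0.81) and Aak1 (r = 0.79). Diap2 for Rxra and Rpl7l1 for Rxrg stood among the nearest 3 in both measures. Among the members themselves, Thra and Thrb deviated in opposite directions within groups (r = -0.62), and Dio2 was only loosely tied to the other 5 (r from -0.03 to 0.18). Removing the means leaves the unequal spread of the groups. The coefficient of variation of Dio2 was 43.3% (control) and 74.7% (knockout) at RT, and 6.36% and 10.2% at 4°C. Its correlations within groups therefore rest mostly on the RT mice. All these correlations are descriptions over 23 mice and carry no test.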

How the data were processed

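BAT RNA of 23 mice, 1 library each, was analysed. Per the labels and the study's methods, the authors made Smart-seq2 libraries, aligned reads with STAR 2.4.0j to mm10 with GENCODE M7, counted uniquely mapped exonic reads with HTSeq irrespective of strand, kept genes with enough reads and divided counts by DESeq2 size factors. The deposited values are these normalized counts (a signal, not raw counts); a table of the authors' own fold changes was not used, and 0 columns of other samples were present. Whole reads were recovered from the steps of the values in all samples (100% whole within 0.01 reads). In the table every gene had at least 9 reads in 6 samples.

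Values were tested as log2(normalized count + 1) with limma 3.58.1 (R 4.3.3) on 4 group means over all 23 mice, with Benjamini-Hochberg adjustment over 14651 genes, among them 19 rows whose symbols had been turned into dates. Fold changes on this scale understate changes of low genes. Tests were checked on simulated data. DESeq2 1.42.0 and edgeR 4.0.16 on recovered reads, other pseudocounts, a filter on low values, 75th percentile scaling, a replicate block and leaving out each mouse were alternatives; fits of only the compared groups were added after seeing the data.

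All 6 members were named in every comparison. From each pathway list, up to 3 genes called by cold in both genotypes with the same sign and the largest log2 fold change in control mice were named; Rxrb, Usp20, Acaca, Fasn and Klf9 were named after their values were seen. For likeness, the 3 genes with the highest r were named. A few genes are not reported here by name, though counts over lists include them. The members and lists were chosen with earlier results of these data known. Positions and exon lengths are from GENCODE M21 (GRCm38), promoters from RefSeq (GRCm38.p6; 5 of 6 members matched, with 9 entries). Mice that share a replicate number across groups were different animals.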

Additional observations from a re-analysis of the deposited data

Results flagged for a closer look

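1 of the 24 groups of the 6 genes (each gene in each of 4 groups) held a mouse far from the others by Dixon's criterion. Ncor1 in BAT-Mcu-KO 4°C replicate 4 had a normalized count of 1152, while the other 5 mice of its group had 835 to 916, and its gap to the nearest of them was 0.713 of the whole range. The criterion is met by chance in about 5% of groups, so 1 in 24 is about what chance gives. Ncor1 stayed lower at 4°C than at RT in knockout mice whichever mouse was left out, with limma log2 fold changes from -0.56 to -0.45.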

How the results depend on the processing

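The cold calls of Dio2, Thra and Ncor1 in both genotypes, and of Rxrg in knockout mice, kept direction and call under every alternative and with any 1 of the 23 mice left out. Members called by cold stayed at 4 to 5 in each genotype when 1 mouse was left out, and pathway genes called at 27 to 31. Thrb by cold in control mice missed the threshold with only the compared groups (limma adjusted p = 0.0501). For genotype at RT, 7 genes of the table were called by limma, 20 by DESeq2 and 3 with only the compared groups. For genotype at 4°C, 11 were called, 23 by DESeq2, 6 by edgeR, 2 with only the compared groups and 3 to 16 with 1 mouse left out. For the interaction, 0 were called by limma, 28 by DESeq2 and 0 to 1 with 1 mouse left out. None of these settings called a member by genotype or interaction. Of 518 single-gene values outside these left-out fits, 512 kept direction and side of the threshold, 3 lost the call and 3 changed sign; of 1518 with 1 mouse left out, 1491, 14 and 13 did. Sign changes, all in values that were not called, were Dio2 for genotype at RT (0.0532 in DESeq2 and 0.0549 in edgeR, and -0.386 to 0.0798 with 1 mouse left out), Rxra by cold in control mice (-0.0493 under 75th percentile scaling, -0.0120 to 0.136), the interaction of Dio2 (-0.398 to 0.0682), Rxrg (-0.0262 to 0.204) and Thrb (-0.0329 to 0.134), and Thrb for genotype at RT (-0.0210 to 0.126); the cause was not tested. The 75th percentile scaling moved the share of cold calls that were higher in control mice from 48.5% to 38.2% and in knockout mice from 49.4% to 44.1%. The deviations of same-numbered mice had a mean r of -0.01 for the cold change of control mice, -0.16 for that of knockout mice, -0.09 for genotype at RT and 0.21 for genotype at 4°C. At 4°C 4 of 5 pairs were over 0.1 (0.0042 to 0.43) and 2 of 5 mice correlated best with their own number, and in no comparison was every pair over 0.1. The numbers were therefore not taken as pairs. With a replicate block, members called were 5, 5, 0 and 0 and genes called 6283, 6340, 5 and 9.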
